A study of Mus musculus with 48 samples.

Results

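The heavy-chain BCR sequences that carried an IgA or an IgG constant region were compared within each of 24 mouse spleens. Members were all rows whose constant-region call was IGHA, set against all rows called IGHG1, IGHG2B, IGHG2C or IGHG3, pooled as IgG. A row is 1 unique nucleotide sequence of 1 isotype, and its count is the number of consensus sequences, each built from reads with the same unique molecular identifier (UMI). The spleens held 270958 IgA rows and 301700 IgG rows among 4645346 rows in all. After removal of sequences found in 3 or more mice, 267600 IgA rows with 1193432 counts and 297534 IgG rows with 1428865 counts were analysed.

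The spleens came from 10 NOD-FMT mice, 9 PBS-T mice and 5 mice labelled NC. All were C57BL/6 (B6) mice. NOD-FMT mice were 5 weeks old when daily gavage with fecal supernatant began, given for 3 weeks, and the supernatant was pooled from 30 NOD.B10.H2b mice over 20 weeks old, a strain with autoimmune dry eye disease. PBS-T mice received PBS by gavage on the same schedule and at the same age, and both groups had ampicillin, vancomycin and metronidazole in the drinking water beforehand. NC mice were untreated B6 mice, so antibiotics, gavage, for NOD-FMT the fecal material, and any difference in age or housing cannot be told apart in a comparison with NC. Whole spleen was used without sorting, so more cells of an isotype and more RNA per cell, as in plasma cells, cannot be told apart in any count below.

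IgM is the first antibody class of a B cell. Class-switch recombination replaces its constant region by that of IgG or IgA while the rearranged V, D and J segments stay the same, and IgA is known above all as the antibody of mucosal surfaces, with much of it made in response to gut microbes. Somatic hypermutation adds point mutations to the V region in germinal centres. The third heavy-chain complementarity-determining region (HCDR3) spans the V-D-J junction and is the most variable part of the receptor. The 4 mouse IgG subclasses differ in the responses they belong to, and IgG3 is known for T cell-independent responses.

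The molecules of each isotype were captured with reverse primers of their own, so the primers are shown first. The isotype call itself came from the study's alignment of the constant region to a reference of constant genes. The gene-specific ends, 5′ to 3′, were as follows, and capitals mark bases of an IgG primer that differ from mnhr3_g when the primers are aligned at their 3′ ends.
mnhr3_g: ccaggggccagtggatagac
mnhr4_g: Acaggggccagtggatagac
mnhr5_g: GccagggAccaAGggatagac
mnhr6_a: tgtcagtgggtagatggtggg
A single primer (mnhr6_a) served IgA and 3 served the IgG subclasses. IgA and IgG rows are therefore products of different primers, and any difference in primer efficiency is part of the ratio of IgA to IgG.

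Sequences with the same IGHV gene, IGHJ gene and HCDR3 amino acids were counted as 1 clonotype. The 5 clonotypes held by both IgA and IgG of the same spleen in the most mice are shown next, because they make the sharing between isotypes visible at the level of sequence. The fifth was 1 of 3 clonotypes held by both isotypes in 8 mice, and had the most counts of them. Each line gives the most counted HCDR3 nucleotide sequence of the clonotype on the coding strand. Capitals mark junction bases for which the deposited alignment has no germline V, D or J base.
IGHV1-55 with IGHJ3: gcaagAGggtttacttac
IGHV1-76 with IGHJ2: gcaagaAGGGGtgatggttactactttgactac
IGHV14-4 with IGHJ3: actacAGGGGggtttgcttac
IGHV6-3 with IGHJ3: acagGCGACGggtttgcttac
IGHV1-9 with IGHJ2: gcaagAGGGGGTAactactttgactac
They code for 6, 11, 7, 7 and 9 residues, and between 2 and 8 of their bases were without a germline base. In GRCm38 the IGHV segments lie on the minus strand of chromosome 12, with IGHV1-55 at chr12:115208095-115208591, IGHV1-76 at chr12:115847881-115848331, IGHV14-4 at chr12:114176438-114176867, IGHV6-3 at chr12:114391712-114392169 and IGHV1-9 at chr12:114583569-114584002. The IgA constant region gene is at chr12:113254830-113260236, beyond the IgG genes IGHG3, IGHG1, IGHG2B and IGHG2C on that strand.

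The number of rows per spleen ranged from 1834 to 31391 (median 10392) for IgA and from 1784 to 64007 (median 9405.5) for IgG. PBS-T mouse 6 was the shallowest in both isotypes and lost 66.6% of all its counts to the filter, though 21.7% of its IgA counts. IGHG2B made up 49.2% ± 4.98 (SD, n = 24) of IgG rows, IGHG2C 25.4% ± 7.83, IGHG3 14.1% ± 4.92 and IGHG1 11.3% ± 5.21. A comparison with pooled IgG is therefore weighted toward IGHG2B.

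IgA carried more V mutations than IgG of the same spleen. A row differed from its germline IGHV gene at 4.00 ± 0.73 bases on average in IgA and at 3.00 ± 0.57 bases in IgG (SD, n = 24), a difference of 1.00 ± 0.75. IgA was higher in 23 of 24 mice (two-sided sign-flip permutation test with 100000 draws, p = 1e-05, which is the smallest they can give, Benjamini-Hochberg adjusted p = 6.5e-05 over 13 measures). PBS-T mouse 8 was the exception, at 3.56 for IgA and 4.13 for IgG.

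Rows without any V mutation were less frequent in IgA. They made up 20.9% ± 4.35 of IgA rows and 29.1% ± 6.75 of IgG rows (SD, n = 24), with IgA higher in only 2 of 24 mice, PBS-T mice 2 and 8 (sign-flip permutation test, adjusted p = 6.5e-05). At the other end, rows with 10 or more V mutations made up 10.2% ± 3.79 of IgA rows. They made up 5.24% ± 2.19 of IGHG2B, 6.79% ± 2.34 of IGHG1, 6.15% ± 3.95 of IGHG2C and 5.08% ± 2.96 of IGHG3 rows, and this was not tested. IgM rows of the same spleens had 0.883 ± 0.408 mutations, and 73.3% ± 7.23 of them had none.

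**Figure D1:**
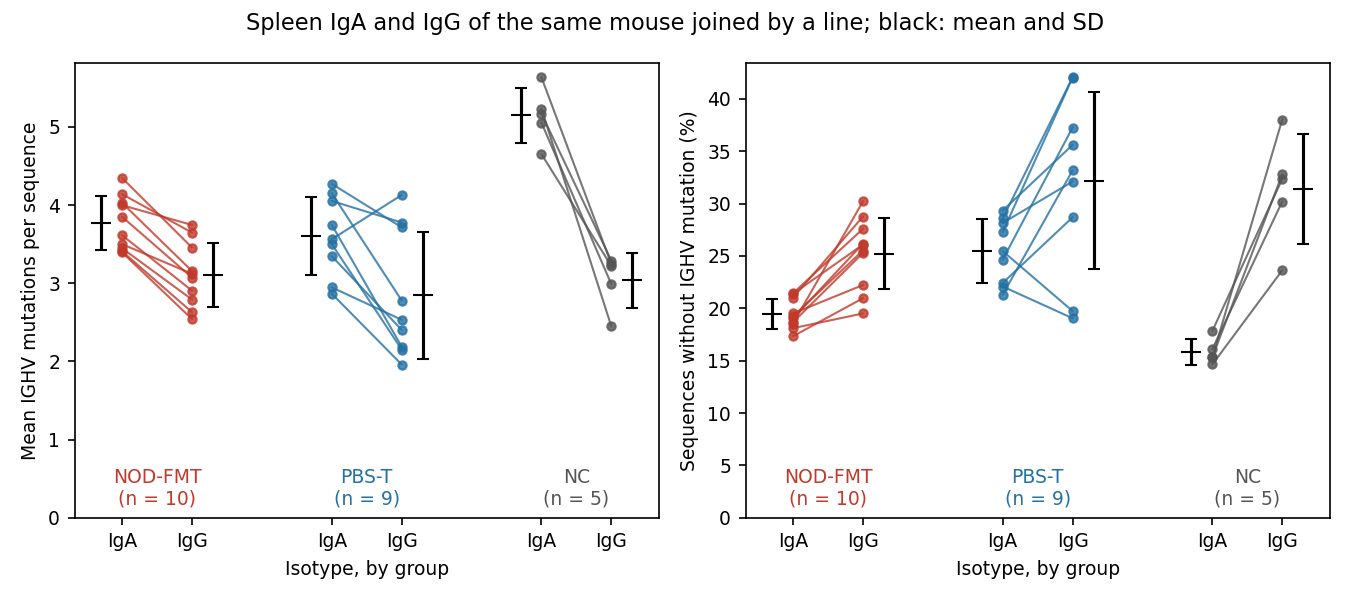
Mean IGHV mutations per sequence (left) and the share of sequences without IGHV mutation in percent (right) for IgA and IgG of each spleen, with a line for each mouse and black bars for the group mean and SD. IgA lies above IgG on the left in 23 of 24 mice, and the mean gap is widest in NC, at 2.11.

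Over all 24 mice, the excess of mutations in IgA held against each IgG subclass on its own. The mean was 3.33 ± 0.58 for IGHG1, 2.93 ± 0.60 for IGHG2B, 3.02 ± 0.73 for IGHG2C and 2.94 ± 0.71 for IGHG3 (SD, n = 24). IgA exceeded IGHG1 in 20 of 24 mice by 0.667 ± 0.773 (sign-flip permutation test, adjusted p = 0.000368), IGHG2B in 23 by 1.07 ± 0.75 (adjusted p = 4.33e-05), IGHG2C in 22 by 0.977 ± 0.920 (adjusted p = 9.29e-05) and IGHG3 in 23 by 1.05 ± 0.87 (adjusted p = 6.5e-05). The gap to IGHG1 was smallest in NOD-FMT, with means of 3.77 ± 0.34 for IgA and 3.62 ± 0.395 for IGHG1 (SD). In PBS-T these means were 3.6 ± 0.50 and 2.95 ± 0.52, and in NC 5.15 ± 0.35 and 3.43 ± 0.69. IgA lay below IGHG1 in NOD-FMT mice 4, 8 and 9 and in PBS-T mouse 6. The gap to IGHG1 was not tested by group. IgA exceeded IgM in 24 of 24 mice.

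**Figure D2:**
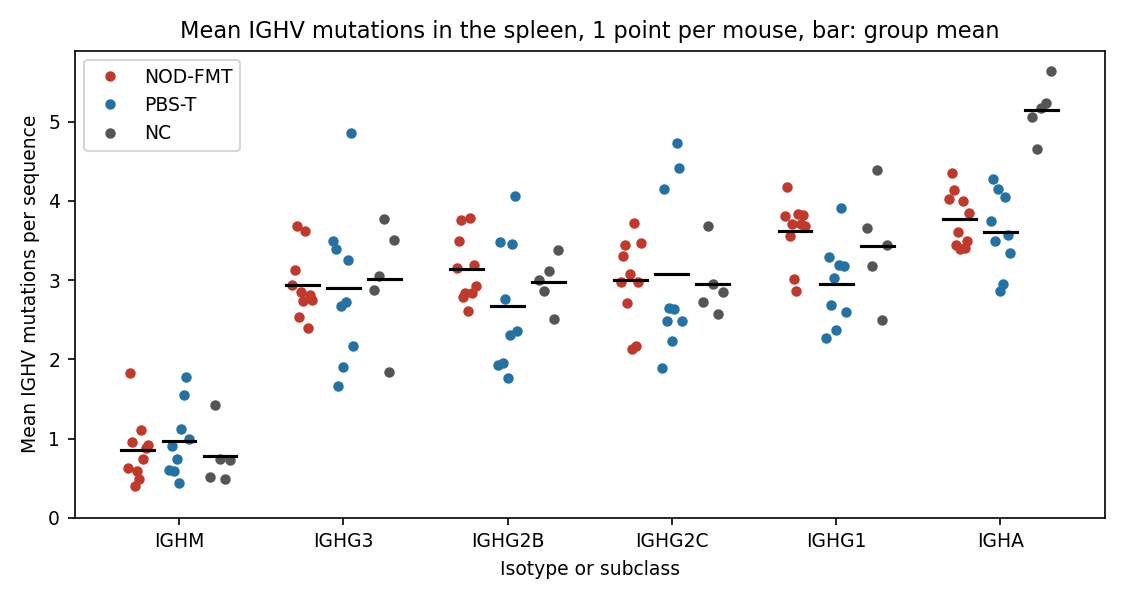
Mean IGHV mutations per sequence in each isotype or IgG subclass, with 1 point per mouse, colours for the groups and bars for group means. IGHA of the 5 NC mice, between 4.65 and 5.63, lies above IGHA of every other mouse.

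Within clonotypes that both isotypes of a spleen held, the order depended on how rows were weighted. The IgA and IgG rows of such a clonotype share V gene, J gene and HCDR3 amino acids. Whether they descend from the same rearrangement was not tested. With equal weight for each of the 128 to 2188 shared clonotypes per mouse, the IgA rows averaged 2.67 ± 0.43 mutations and the IgG rows of the same clonotypes 2.86 ± 0.44 (SD, n = 24). The difference of -0.189 ± 0.136 was negative in 22 of 24 mice (sign-flip permutation test, p = 2e-05), and it ranged from -0.40 to 0.14. With all rows of these clonotypes pooled, so that large clonotypes weighed more, the direction turned: IgA rows had 3.69 ± 0.83 mutations and IgG rows 3.08 ± 0.69, a difference of 0.609 ± 0.836 that was positive in 21 of 24 mice (sign-flip permutation test, p = 0.00103, a comparison added after seeing the data). IgA rows in shared clonotypes thus had 3.69 mutations and those in clonotypes without IgG 4.15 ± 0.69, lower in the shared ones in 20 of 24 mice. For IgG rows the corresponding means were 3.08 ± 0.69 and 2.93 ± 0.55, and the shared ones were lower in 9 of 24.

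The gap in mutations between IgA and IgG differed by group. NOD-FMT mice had 3.77 ± 0.34 mutations per IgA row (lowest 3.39, median 3.73, highest 4.35) and 3.11 ± 0.41 per IgG row (2.54, 3.10 and 3.75). PBS-T mice had 3.6 ± 0.50 per IgA row (2.87, 3.56 and 4.27) and 2.85 ± 0.81 per IgG row (1.96, 2.53 and 4.13). The 5 NC mice had 5.05, 4.65, 5.17, 5.23 and 5.63 per IgA row and 2.99, 3.22, 3.29, 2.45 and 3.25 per IgG row. IgA of NC mice did not overlap with that of the other groups, whereas the IgG values of all 3 groups overlapped.

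The IgA minus IgG difference was 0.666 ± 0.220 in NOD-FMT, 0.756 ± 0.667 in PBS-T and 2.11 ± 0.51 in NC. The NOD-FMT difference was smaller than that of NC (two-sided exact permutation test, adjusted p = 0.00649 over 39 group tests), and so was the PBS-T difference (adjusted p = 0.0156). Without NC mouse 4 the latter adjusted p was 0.0655. Between NOD-FMT and PBS-T the differences were within the spread (exact permutation test, p = 0.701). The levels of each isotype were tested after these values had been seen. IgA mutations differed by -1.38 in NOD-FMT minus NC and by -1.54 in PBS-T minus NC (exact permutation tests, both adjusted p = 0.003 over 24 tests of levels), while IgG mutations of NOD-FMT and NC differed by 0.068 (adjusted p = 0.786) and those of PBS-T and NC by -0.19 (adjusted p = 0.723).

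The share of unmutated rows also differed between groups, in both isotypes. It was 19.4% ± 1.42 of IgA rows in NOD-FMT (lowest 17.3, median 19.1, highest 21.4), 25.5% ± 3.04 in PBS-T (21.3, 25.5 and 29.3) and 15.4%, 17.8%, 16.1%, 15.3% and 14.6% in the 5 NC mice. Of the 9 PBS-T mice, 8 lay above the highest NOD-FMT mouse. The NOD-FMT share of unmutated IgA minus that of PBS-T was -6.04 percentage points (exact permutation test, adjusted p = 0.000779), and it exceeded that of NC by 3.58 points (adjusted p = 0.0032). For IgG the shares were 25.2% ± 3.41, 32.2% ± 8.45 and 31.4% ± 5.21, and NOD-FMT minus PBS-T was -6.96 points (exact permutation test, adjusted p = 0.0589) and NOD-FMT minus NC -6.16 points (adjusted p = 0.0376, and between 0.0503 and 0.113 in 10 of the 15 repeats that each left out a mouse of either group). When either of mice 2 and 8 of PBS-T was left out, which had the lowest shares of unmutated IgG rows in that group, the adjusted p between NOD-FMT and PBS-T was 0.0148 or 0.0189. The IgA minus IgG difference itself was -5.80 ± 2.90 points in NOD-FMT, -6.71 ± 7.32 in PBS-T and -15.5 ± 5.02 in NC. NOD-FMT and NC differed in it (exact permutation test, adjusted p = 0.00649), while NOD-FMT and PBS-T (adjusted p = 0.852) and PBS-T and NC (adjusted p = 0.132) did not pass the threshold. IgA of PBS-T was thus less often mutated at all than IgA of NOD-FMT, at a mean number of mutations per row that did not pass the test (3.6 and 3.77, adjusted p = 0.603).

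The amount of IgA relative to IgG differed between NC and NOD-FMT. There were 0.988 IgA rows per IgG row in the median spleen, with 12 of 24 mice above 1. The ratio was 0.49 to 1.14 in NOD-FMT (median 0.80), 0.287 to 1.80 in PBS-T (median 1.11), and 2.43, 3.61, 1.69, 2.88 and 1.54 in the 5 NC mice. On the log2 scale, the means were -0.32 ± 0.34, -0.25 ± 1.07 and 1.21 ± 0.52 (SD). NOD-FMT minus NC was -1.53 on this scale (exact permutation test, adjusted p = 0.00649), and PBS-T minus NC, at -1.46, did not pass the threshold (adjusted p = 0.0925). PBS-T mice 2, 8 and 9 had the lowest ratios of all 24 mice. Of the 39 group tests of the 13 measures, 5 passed the threshold, all of them against NC. None of the 13 between NOD-FMT and PBS-T did (exact permutation tests, 1 at an unadjusted p under 0.05, smallest adjusted p = 0.0925).

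HCDR3 of IgA was slightly shorter over all 24 mice. With each clonotype counted once, its mean length was 11.58 ± 0.18 residues in IgA and 11.69 ± 0.20 in IgG, a difference of -0.11 ± 0.12 that was positive in 5 of 24 mice (sign-flip permutation test, adjusted p = 0.000617). By group it was -0.10 ± 0.084 in NOD-FMT (IgA longer in 1 of 10 mice), -0.185 ± 0.132 in PBS-T (1 of 9) and 0.00372 ± 0.0981 in NC (3 of 5), and none of the 3 pairs of groups passed (exact permutation tests, adjusted p = 0.256 for NOD-FMT against PBS-T, 0.17 for NOD-FMT against NC and 0.0925 for PBS-T against NC). With counts as weights, or among rows of at least 2 counts, the difference over all mice did not pass (adjusted p = 0.0756 and 0.101). The sign depended on the subclass. IgA was shorter than IGHG2C (11.8 residues, difference -0.219 ± 0.226, adjusted p = 5.2e-05) and IGHG2B (11.7 residues, -0.0895 ± 0.1146, adjusted p = 0.00307), and longer than IGHG3 (11.4 residues, 0.179 ± 0.262, adjusted p = 0.00279).

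Mean HCDR3 hydrophobicity on the Kyte-Doolittle scale, where lower values are more hydrophilic, was -0.697 ± 0.028 in IgA and -0.685 ± 0.022 in IgG (adjusted p = 0.00607). The IgA minus IgG difference was -0.023 ± 0.0116 in NOD-FMT, -0.0094 ± 0.0114 in PBS-T and 0.00721 ± 0.01384 in NC, and NOD-FMT and NC differed in it (exact permutation test, adjusted p = 0.00649). The difference depended on the subclass, at -0.0407 against IGHG1 (adjusted p = 0.000312), -0.0243 against IGHG2C (adjusted p = 0.00752), -0.00472 against IGHG2B (adjusted p = 0.312) and, with the opposite sign, 0.0158 against IGHG3 (adjusted p = 0.079). It did not pass among rows of at least 2 counts (adjusted p = 0.0516). Net charge of HCDR3 was -0.219 ± 0.075 in IgA and -0.211 ± 0.092 in IgG (adjusted p = 0.692), again with opposite signs against IGHG2B (-0.0333, adjusted p = 0.036) and IGHG2C (0.062, adjusted p = 0.0111). Among the tests of levels, IgG of NOD-FMT was less negatively charged than IgG of PBS-T, -0.146 ± 0.057 against -0.267 ± 0.081 (exact permutation test, adjusted p = 0.00635), with -0.241 ± 0.097 in NC (adjusted p = 0.0596 against NOD-FMT). IgA charge was also least negative in NOD-FMT, at -0.170 ± 0.066, against -0.245 ± 0.069 in PBS-T (adjusted p = 0.0589) and -0.268 ± 0.049 in NC (adjusted p = 0.0376). This charge call against NC was lost without NC mouse 1, 3, 4 or 5. The same happened without NOD-FMT mouse 2, 3, 4, 5, 7 or 9 (exact permutation tests, adjusted p from 0.0519 to 0.0811). IgA of NOD-FMT was more hydrophilic than IgA of PBS-T, -0.716 ± 0.015 against -0.688 ± 0.017 (adjusted p = 0.00635), and than IgA of NC, at -0.676 ± 0.040 (adjusted p = 0.0376). This hydrophobicity call against NC was lost without NC mouse 1, 3, 4 or 5. It was also lost without NOD-FMT mouse 2, 3, 4, 5, 9 or 10 (exact permutation tests, adjusted p from 0.0503 to 0.0839). IgG hydrophobicity did not pass in any of the 3 pairs (adjusted p = 0.125 to 0.786).

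All 4 IGHJ genes passed the test between IgA and pooled IgG, by small amounts, but none of them against every single subclass. IGHJ4 made up 23.7% ± 2.73 of IgA clonotypes and 26.1% ± 2.39 of IgG clonotypes, and was lower in IgA in 21 of 24 mice. IGHJ3 made up 23.2% ± 2.40 and 21.4% ± 1.22, higher in IgA in 20 of 24 mice. The adjusted p-values were 0.000217 and 0.000728 (sign-flip permutation tests). IGHJ2, at 35.8% ± 2.45 against 34.3% ± 2.18, and IGHJ1, at 17.3% ± 1.99 against 18.1% ± 1.95, were near the threshold (adjusted p = 0.0322 and 0.0391), and each lost its call without certain single mice, IGHJ1 without any of 12 and IGHJ2 without any of 5 (adjusted p up to 0.0747 and 0.0621). IGHJ1 passed against IGHG1 alone of the subclasses (adjusted p = 0.192 for IGHG2B, 0.468 for IGHG2C and 0.0531 for IGHG3). IGHJ2 likewise passed against IGHG1 only (adjusted p = 0.13 for IGHG2B and 0.131 for IGHG2C), and its sign was the opposite against IGHG3 (-2.54 points, adjusted p = 0.0565). Among rows of at least 2 counts neither passed (adjusted p = 0.0516 and 0.46). IGHJ4 did not pass against IGHG1 (adjusted p = 0.528). The IGHJ3 difference came with a contrast between subclasses. IGHJ3 made up 14.4% of IGHG3 clonotypes, 8.83 ± 4.08 points below IgA (higher in IgA in 23 of 24 mice, adjusted p = 4.33e-05), but 25.7% of IGHG1 clonotypes, above the IgA share (adjusted p = 0.0536).

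Of 81 IGHV genes with enough clonotypes to test, 32 (39.5%) differed in their share of clonotypes between IgA and IgG, 16 (19.8%) higher in IgA and 16 (19.8%) higher in IgG (edgeR quasi-likelihood test with the mouse as a block, Benjamini-Hochberg threshold of 0.05). With TMM scaling the split was 17 and 10, with rows in place of clonotypes 8 and 21, and weighted by counts 5 and 13. The median over all 81 genes was -0.05 on the log2 scale, where positive values are higher in IgA. The IGHV genes encode the first 2 complementarity-determining regions and are grouped in families by sequence. Both tested members of the IGHV6 family and both of IGHV7 were higher in IgA (family medians 0.51 and 0.47). The IGHV13 family had 1 tested member, also higher in IgA. Of the IGHV8 family, 2 of 3 tested members were higher in IgG and none higher in IgA (median -0.18), and the family made up 2.92% ± 0.85 of IgA clonotypes and 3.67% ± 0.98 of IgG clonotypes, lower in IgA in all 24 mice. In IGHV2, 2 of 7 were higher in IgG and in IGHV9 1 of 4, the single tested IGHV4 gene was higher in IgG, IGHV3 had 1 of 5 in each direction, and IGHV14 had 2 of 4 higher in IgA and 1 higher in IgG. None of the 8 IGHV5 or 2 IGHV10 genes passed. The large IGHV1 family, 65.4% ± 4.41 of IgA and 65.0% ± 4.19 of IgG clonotypes, had 8 of 42 members in each direction.

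The genes with the largest fold toward IgA, among those at 0.5% or more of either isotype, were IGHV1-34, IGHV1-58, IGHV6-3, IGHV6-6, IGHV1-76, IGHV7-3, IGHV14-3 and IGHV14-2. Their log2 ratios ran from 0.68 to 0.26. IGHV6-3 made up 1.11% to 3.61% (median 1.97%) of IgA clonotypes and 0.581% to 1.93% (median 1.31%) of IgG clonotypes. The ranges overlapped, but within mice IgA was higher in 21 of 24 (log2 ratio 0.57, adjusted p = 4.36e-07). IGHV1-76 made up 2.60% ± 0.79 of IgA and 1.89% ± 0.49 of IgG clonotypes (log2 ratio 0.45, higher in IgA in 20 mice, adjusted p = 6.03e-07). IGHV7-3, at 1.95% ± 0.66 and 1.42% ± 0.43, had a log2 ratio of 0.43, and IGHV6-6, at 1.24% ± 0.39 and 0.891% ± 0.260, one of 0.45. Both IGHV6 genes are on the minus strand, IGHV6-3 at chr12:114391712-114392169 and IGHV6-6 at chr12:114434788-114435244.

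The genes with the largest fold toward IgG, again among those at 0.5% or more of either isotype, were IGHV4-1, IGHV3-8, IGHV8-8, IGHV1-42, IGHV2-2, IGHV14-4, IGHV1-7 and IGHV1-52. Their log2 ratios ran from -0.68 to -0.29. Below that limit, larger folds were seen for IGHV1-47 toward IgG (-0.95) and IGHV3-5 toward IgA (0.84). IGHV8-8 made up 0.628% to 2.53% (median 0.957%) of IgA and 0.914% to 4.00% (median 1.55%) of IgG clonotypes, and was higher in IgA in only 1 of 24 mice (log2 ratio -0.57, adjusted p = 2.18e-07). IGHV2-2, at 1.03% ± 0.25 and 1.54% ± 0.44, was higher in IgA in 2 mice (log2 ratio -0.54, adjusted p = 6.03e-07). IGHV4-1, at 0.532% ± 0.294 and 0.902% ± 0.427, was also higher in IgA in 2 mice (log2 ratio -0.68, adjusted p = 4.21e-06).

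Several of these differences depended on the IgG subclass. IGHV4-1 made up 4.31% of IGHG3 clonotypes, 1.03% of IGHG2C, 0.486% of IGHG2B and 0.447% of IGHG1, so that IgA at 0.532% was far below IGHG3 (log2 ratio -2.83, edgeR adjusted p = 1.31e-57) and below IGHG2C (-0.77, adjusted p = 0.000134), and did not pass against IGHG2B (0.13, adjusted p = 0.486) or IGHG1 (0.42, adjusted p = 0.233). IGHV6-3, IGHV6-6 and IGHV7-3 had the opposite exception. IGHV7-3 made up 3.18% of IGHG3 clonotypes, IGHV6-3 made up 3.04% and IGHV6-6 made up 1.74%, more than of IgA, with log2 ratios of IgA to IGHG3 of -0.68 (adjusted p = 2.91e-08), -0.60 (1.03e-06) and -0.53 (0.000478). Against IGHG1, IGHG2B and IGHG2C their log2 ratios were all positive, between 0.57 and 0.98, with adjusted p-values from 5.45e-10 to 0.000735. IGHV7-1 did not pass against IGHG3 (-0.13, adjusted p = 0.693) or IGHG2C (0.55, adjusted p = 0.0569), and passed against IGHG1 (0.92, adjusted p = 0.0165) and IGHG2B (0.68, adjusted p = 0.000201). The share of IGHV6-3, IGHV6-6 and IGHV7-3 ran from IGHG3, the highest, through IgA to the other subclasses. IGHV1-34, IGHV1-58, IGHV1-76, IGHV14-3 and IGHV14-2 were on the IgA side against all 4 subclasses, and IGHV8-8, IGHV2-2, IGHV3-8, IGHV1-42 and IGHV14-4 on the IgG side, though not past the threshold against each. IGHV8-8 and IGHV2-2 passed against all 4, as did IGHV1-34 and IGHV1-76. IGHV1-7 passed against IGHG2B alone (-0.46, adjusted p = 2.83e-06), with log2 ratios of -0.24 to IGHG1 (adjusted p = 0.233), -0.23 to IGHG2C (0.112) and 0.0463 to IGHG3 (0.797). IGHV1-52 passed against IGHG1 (-0.45, adjusted p = 0.017), IGHG2B (-0.30, 0.00339) and IGHG2C (-0.31, 0.0442), and was at 0.14 against IGHG3 (0.545).

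**Figure D3:**
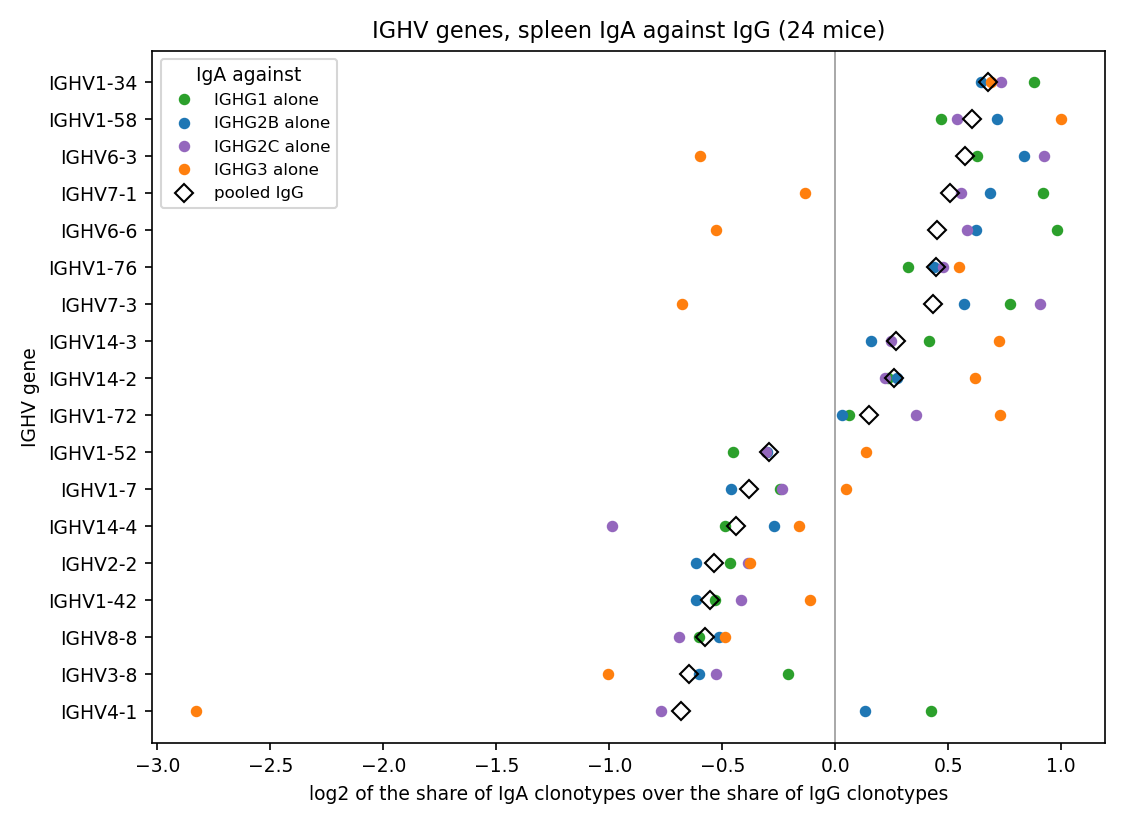
Log2 ratio of the share of IgA clonotypes to the share of IgG clonotypes for 18 IGHV genes, as pooled IgG (diamonds) and against each IgG subclass alone (points), positive toward IgA. The IGHG3 points of IGHV6-3, IGHV6-6, IGHV7-1 and IGHV7-3 lie left of 0 while their other points lie right of it, and the IGHG3 point of IGHV4-1 is at -2.83.

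IGHV11-2 and IGHV12-3, which are known for receptors of B-1 cells that bind phosphatidylcholine, were too rare to test. IGHV11-2 had 89 clonotypes in IgA and 89 in IgG over all mice, or 0.0869% and 0.0732%, and IGHV12-3 had 23 and 33. A single IGHV11-2 clonotype nevertheless was the largest of all in IgA of NOD-FMT mouse 10, with 3339 counts or 8.45% (95% Wilson interval 8.18 to 8.73) of IgA counts, against 7 IgG counts. IGHV7-1 was higher in IgA (log2 ratio 0.51, adjusted p = 0.000883), and IGHV1-72 was slightly so (3.34% ± 0.38 against 3.01% ± 0.61, log2 ratio 0.15, adjusted p = 0.0306, and between 0.051 and 0.06 when any of mice 4 and 5 of NC or 8 and 9 of PBS-T was left out). Against single subclasses, IGHV1-72 passed for IGHG3 (log2 ratio 0.73, adjusted p = 4.91e-10) and IGHG2C (0.36, adjusted p = 0.000632), and not for IGHG1 (0.06, adjusted p = 0.758) or IGHG2B (0.03, adjusted p = 0.882).

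The IgA to IgG ratio of V genes was compared between groups by an interaction term in the same model. No gene (0%) passed between NOD-FMT and PBS-T (edgeR, 11 of 81 at an unadjusted p under 0.05, and none with TMM scaling, 7 at an unadjusted p under 0.05). Between NOD-FMT and NC 6 genes (7.41%) passed, and between PBS-T and NC 2 (2.47%), against 12 and 10 with TMM scaling. IGHV6-3 and IGHV10-1 passed in both. IGHV6-3 made up 2.18% of IgA and 1.35% of IgG clonotypes in NOD-FMT and 2.13% and 1.2% in PBS-T, higher in IgA in 10 of 10 and 9 of 9 mice, but 1.35% and 1.36% in NC, higher in IgA in 2 of 5. Its log2 ratio exceeded that of NC by 0.73 in NOD-FMT (adjusted p = 0.0145) and by 0.82 in PBS-T (adjusted p = 0.0155). IGHV10-1 was at 0.634% of IgA and 1.22% of IgG clonotypes in NC, and lower in IgA in all 5 mice, against 0.985% and 1.04% in NOD-FMT and 1.04% and 0.922% in PBS-T. The 2 comparisons share the NC mice. The counts lay between 1 and 8 and between 1 and 10 as single mice were left out, at 1 without NC mouse 5 and at 10 without PBS-T mouse 3.

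None of the 3 measures of diversity passed the test between IgA and pooled IgG at a fixed depth, which the shallowest spleen set. The number of clonotypes depended on depth. At the lower depth of each mouse, IgG held more clonotypes on average, and that difference passed the threshold. At 3282 counts per isotype, IgA held 962 ± 141 and IgG 973 ± 184 clonotypes (SD, n = 24, sign-flip permutation test, adjusted p = 0.736), with more in IgA in 9 of 24 mice. Evenness, on a scale where 1 means clonotypes of equal size, was 0.836 ± 0.046 and 0.822 ± 0.054 (adjusted p = 0.322). The 10 largest clonotypes held 25.6% ± 7.62 of IgA and 28.0% ± 9.37 of IgG counts (adjusted p = 0.383). A single subclass was less diverse than IgA at equal depth for 3 of the 4. At 1164 counts IgA held 492 clonotypes and IGHG1 296, at 831 counts 388 against 237 for IGHG2C, and at 510 counts 272 against 161 for IGHG3, more in IgA in 22 of 22, 24 of 24 and 22 of 23 mice deep enough (sign-flip permutation tests, adjusted p at most 4.33e-05), while 573 against 552 for IGHG2B at 1472 counts did not pass (adjusted p = 0.312).

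Between 6.66% and 24.6% (mean 16.1% ± 4.68) of the IgA clonotypes of a spleen also occurred in its own IgG, and between 7.48% and 20.2% (mean 14.4% ± 3.49) of the IgG clonotypes in its own IgA. In all, 15695 distinct clonotypes were held by both isotypes of at least 1 spleen, of 98276 in IgA and 118628 in IgG. An IgA clonotype of 1 mouse was found in the IgG of another mouse far less often, in 0.442% ± 0.174 of cases on average over the other 23 spleens, and in no mouse in more than 0.819%. The filter had taken out sequences found in 3 or more mice, which can lower the share between mice. How much it did so was not tested. Shared clonotypes were the larger ones, and the part of depth in this was not tested. They held 52.9% ± 12.5 of IgA counts and 50.4% ± 15.2 of IgG counts, above their share of clonotypes in 24 of 24 mice for both isotypes. Between 123 and 3216 nucleotide sequences per spleen were identical in IgA and IgG.

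**Figure D4:**
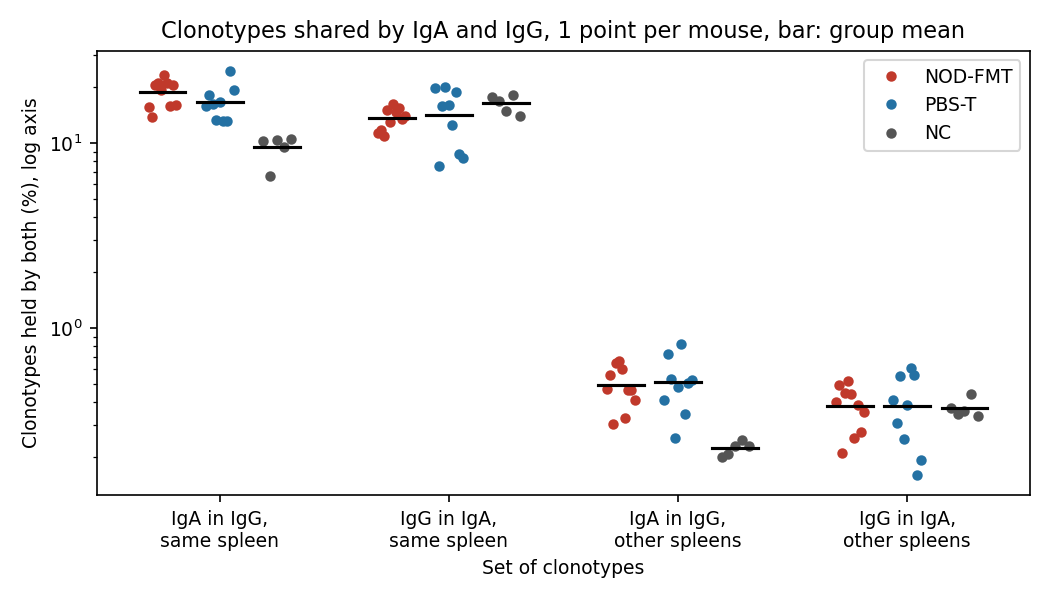
Percent of clonotypes of 1 isotype that were also found in the other isotype of the same spleen or, as the mean over 23, of other spleens, on a log axis, with 1 point per mouse and bars for group means. Shares within a spleen lie between 6.66% and 24.6%, and those between spleens stay below 1%.

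The share of IgA clonotypes also found in IgG was 18.8% ± 3.16 in NOD-FMT, 16.7% ± 3.67 in PBS-T and 9.48% ± 1.63 in NC, and the share of IgG clonotypes found in IgA was 13.6% ± 1.83, 14.2% ± 5.11 and 16.4% ± 1.83. These shares move with the size of each isotype, and NC mice had few IgG clonotypes for their IgA. A draw of 966 clonotypes from each isotype did not remove this dependence. It left 10.2 clonotypes in both in NOD-FMT mouse 3, with 10557 IgA and 20023 IgG clonotypes, and 120.5 in PBS-T mouse 6, with 966 and 1025. Groups differed on it by -15.3 (NOD-FMT minus PBS-T), -1.04 (NOD-FMT minus NC) and 14.3 (PBS-T minus NC), none past the threshold (exact permutation tests, adjusted p = 0.488, 0.889 and 0.56), and since the measure moves with repertoire size these values say nothing of how much the isotypes share. In IgM of the same spleen, 23.0% ± 3.24 of IgG clonotypes and 19.8% ± 4.58 of IgA clonotypes were also found, with the IgG share higher in 22 of 24 mice.

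Of the 15695 shared clonotypes, 15279 were shared in 1 spleen only and 32 in 5 or more. The IGHV1-55 clonotype shown above led, with both isotypes in 17 mice, 9 of 10 NOD-FMT and 8 of 9 PBS-T. Its presence in IgG rested on 1 count in NOD-FMT mice 4 and 10 and PBS-T mouse 1. The clonotype was in IgA of all 19 NOD-FMT and PBS-T mice and in no NC mouse, where 3 counts would be at most 0.0157% of IgA counts. It had 3114 IgA and 498 IgG counts, and its share of counts was higher in IgA in 17 of 19 mice. The median share of IgA counts was 0.119% in NOD-FMT and 0.286% in PBS-T, against 0.0299% and 0.0213% of IgG counts. Its 696 IgA and 176 IgG rows held 20 HCDR3 nucleotide versions, and the one printed above occurred in 18 mice.

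The IGHV1-76 clonotype was almost wholly IgA. It had 18208 IgA counts, 97.4% of its total, and 491 IgG counts. It was in IgA of 9 of 10 NOD-FMT and 7 of 9 PBS-T mice and of no NC mouse, and its share was higher in IgA in all 16. It reached 4.92%, 4.86%, 4.71% and 6.60% of IgA counts in NOD-FMT mice 2, 3, 4 and 5, where its share of IgG counts was 0.596%, 0.0602%, 0.0987% and 0.208%. In the PBS-T mice that held it, the share of IgA counts ran from 0.429% to 3.34%. Mutations were close in both isotypes, with 4.83 mutations per IgA row and 4.74 per IgG row. It had 67 HCDR3 nucleotide versions, and the one printed above was in 4 mice.

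The IGHV6-3 clonotype was found in IgA of 10 of 10 NOD-FMT mice and in IgG of 9, and in neither isotype of any PBS-T or NC mouse. It made up 0.00257% to 0.668% of IgA counts in NOD-FMT mice, with 1291 IgA and 218 IgG counts in all. NOD-FMT mouse 1 had 1 IgA count of it and NOD-FMT mouse 8 had 1 IgG count. In PBS-T mice a count of 0 allows a share of up to 0.00323% to 0.0779% of IgA counts, depending on the mouse. It was also in no PBS-T or NC mouse without the filter, when the clonotype had 3026 counts. It had 20 HCDR3 nucleotide versions, of which the one above was in 5 mice. Its IgA rows averaged 1.94 mutations and its IgG rows 3.05, beside 3.77 ± 0.34 and 3.11 ± 0.41 over all IgA and IgG rows of NOD-FMT mice. This clonotype was chosen for its sharing between isotypes, and its difference between groups is given without a test.

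The IGHV14-4 clonotype was held by mice of all groups, and its share of counts was higher in IgA in 12 of 14 mice. Its counts were 830 in IgA and 895 in IgG, but most came from PBS-T mouse 7, with 522 in IgA and 845 in IgG, the largest IgG clonotype of that mouse at 5.95% of IgG counts. Without that mouse the counts were 308 in IgA and 50 in IgG. Mutations averaged 8.01 per IgA row and 8.71 per IgG row, and 6.18 and 5.71 without that mouse. The IGHV1-9 clonotype was in both isotypes of 8 mice of all 3 groups and 84.2% IgA by counts, with 726 of 10377 IgA counts in PBS-T mouse 2 and 5.63% of IgA counts in NOD-FMT mouse 6.

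**Figure D5:**
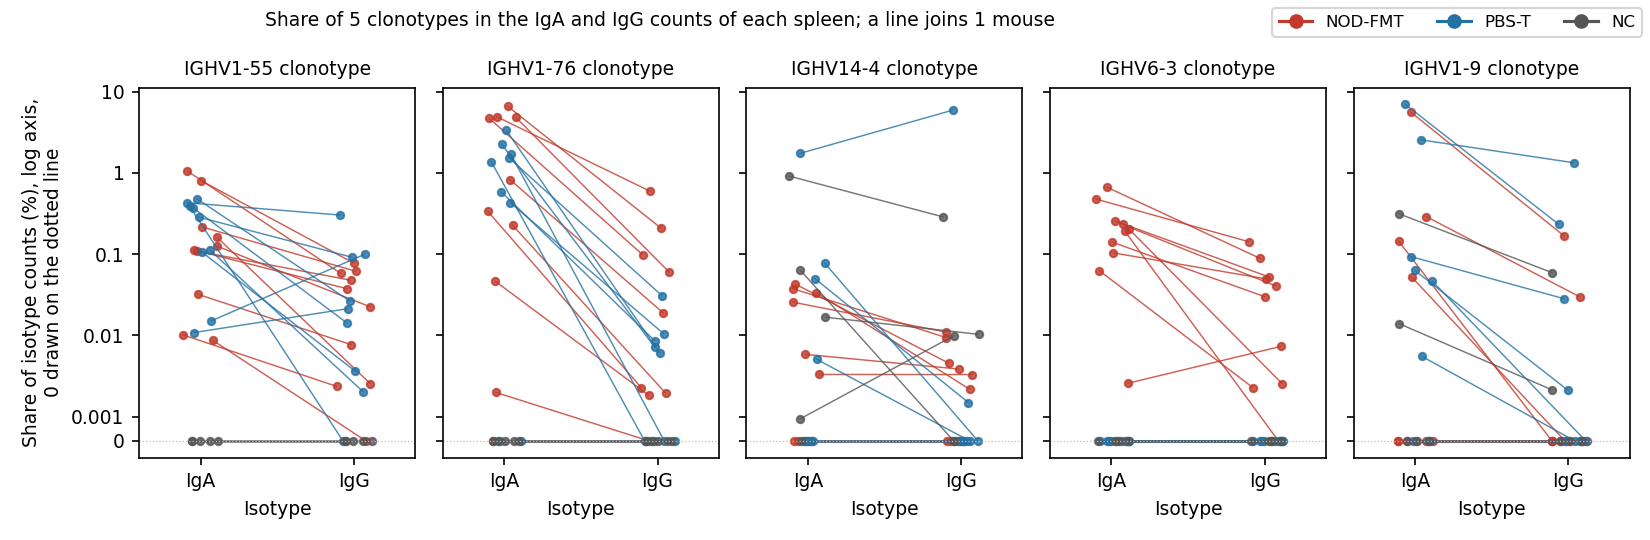
Share of IgA and of IgG counts, in percent on a log axis, taken by each of the 5 clonotypes in every spleen, with a line for each mouse and zeros on the dotted line. The IGHV1-76 clonotype falls from IgA to IgG in all 16 mice that hold it, and the IGHV6-3 clonotype has values above 0 in NOD-FMT mice only.

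The largest clonotype of each spleen took 2.33% to 35.5% (median 6.46%) of IgA counts and 2.32% to 31.9% (median 6.08%) of IgG counts. It was the same clonotype in both isotypes in 3 of 24 mice. In NOD-FMT mouse 8 an IGHV5-4 clonotype with IGHJ4 took 35.5% (95% Wilson interval 35.1 to 35.9) of IgA and 31.9% (31.5 to 32.4) of IgG counts. In NOD-FMT mouse 3 an IGHV1-59 clonotype took 9.72% and 18.1%, and in PBS-T mouse 6 an IGHV2-9-1 clonotype took 425 of 3852 IgA counts and 8.26% of IgG counts. The largest IgA clonotype had at least 1 IgG count in 22 of 24 mice, often few, such as 2 against 1948 in NOD-FMT mouse 6. IGHV1-76 and IGHV1-9 each supplied the largest IgA clonotype of 4 mice, and IGHV1-80 the largest IgG clonotype of 4. These intervals cover counting error only.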

How the data were processed

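Heavy-chain BCR libraries of 24 spleens, with IgA and IgG amplified by isotype primers, were compared. The authors merged reads with PEAR, clustered them by UMI with Clustal Omega and assigned germline genes with IgBLAST. The authors deposited raw counts of consensus sequences for each unique sequence and isotype, and a mutation value (bases that differ from the germline V gene), without normalization, and the files still held sequences found in several mice. The labels name mm10. The column of library frequencies was not used.

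Identical nucleotide sequences in 3 or more of the 24 spleens were removed here, and the lacrimal gland libraries were not analysed. After that, counts ranged from 3852 to 181793 for IgA and from 3282 to 395237 for IgG per spleen. Mutation measures count each row once, HCDR3 and J measures each clonotype once, and diversity is the mean of 20 draws at 3282 counts. The mouse was the unit. Differences within mice were tested by sign flips (100000 draws, 13 measures), groups by exact permutation over all 92378, 3003 or 2002 regroupings (39 tests), and V genes with a mean of 5 or more clonotypes by edgeR's quasi-likelihood test with mouse as a block and the total as library size, all with Benjamini-Hochberg adjustment at 0.05. Adjusted p-values for V genes are from edgeR.

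The V genes named were the 8 with the largest fold in each direction among called genes at 0.5% or more, plus IGHV11-2, IGHV12-3, IGHV7-1, IGHV6-3, IGHV6-6 and IGHV1-72, and the clonotypes the 5 held by both isotypes in most mice, with ties broken by total counts. IGHV10-1 and the largest clonotypes were named after their values were seen. Members, lists and tests were chosen with earlier results of these data known. The edgeR test of IgA against IgG was checked on simulated data, and the sign-flip, permutation and interaction tests were not. Counts were drawn for 131 genes, and those with enough clonotypes were tested. With no change, 3.67% of edgeR p-values were under 0.05, and all genes with 2-fold changes were found. The V gene ratios of IgA to pooled IgG were all smaller than 2-fold, and finding changes of that size was not checked. NOD-FMT and PBS-T mice share replicate numbers in the labels, but nothing says that a number marks a litter or batch. Nothing says how cages were shared, and p-values measure the spread between these mice. Alternatives were other filters, weights, units, subclasses, scalings, DESeq2 and each mouse left out. Gene positions are those of GENCODE M21, and primer sequences come from the study's primer list. Python 3.11.15, NumPy 2.4.6, pandas 2.3.3, R 4.3.3, edgeR 4.0.16 and DESeq2 1.42.0 were used.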

Additional observations from a re-analysis of the deposited data

Results flagged for a closer look

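In 45 sets of values (13 measures of IgA minus IgG, mutations within shared clonotypes and the share of IgA clonotypes found in IgG, each in 3 groups), 2 mice stood apart from their group by Dixon's criterion, which chance meets in about 1 of 20 sets. PBS-T mouse 1 held 251 more clonotypes in IgA than in IgG at equal depth, and 6.66% of the IgA clonotypes of NC mouse 2 were also in its IgG, the lowest share of all mice.

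The IgA minus IgG value differed between groups by exact permutation test in 5 cases. The NOD-FMT value minus the NC value was -1.53 for the log2 ratio of rows, -1.44 for mutations per row, 9.74 percentage points for unmutated rows and -0.0302 for HCDR3 hydrophobicity, and the PBS-T value minus the NC value was -1.35 for mutations per row. For V genes, the log2 ratio of IgA to IgG in NOD-FMT minus that in NC was 0.73 for IGHV6-3, -0.33 for IGHV1-26, 1.76 for IGHV2-6-1, 0.73 for IGHV5-16, 0.85 for IGHV10-1 and 1.26 for IGHV5-12. In PBS-T minus NC it was 0.82 for IGHV6-3 and 1.16 for IGHV10-1 (edgeR interaction test, adjusted p under the threshold in each). NC mice differ from both other groups in antibiotics and gavage, and from NOD-FMT in the fecal transfer too, and these cannot be told apart.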

How the results depend on the processing

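The higher mutation number and lower unmutated share of IgA kept their direction and passed the threshold under every alternative run. The lower mutations of IgA within shared clonotypes did so under the filters, subclasses, clonotype definitions and mice left out, but turned to 0.609 with rows of shared clonotypes pooled, a setting chosen after seeing the data. Of 1968 values without 1 mouse, 1869 were unchanged, and of 541 under other settings 452 were. Unchanged means the same direction and call for a test, and a value near the main one for a count or percentage. A group difference cannot move when a mouse of neither group is left out. Such repeats are among the 1968, so their share of unchanged values overstates stability. Leaving out ambiguous V calls changed nothing, since there were none. The cause was not tested where a value moved, other than as stated.

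Single subclasses held fewer rows than pooled IgG, and values of IgA minus a subclass were as follows. Against IGHG1, the log2 ratio of rows was 3.33, clonotypes at fixed depth 195, evenness 0.0845, the 10 largest clonotypes -17.3 points, HCDR3 length -0.114, IGHJ3 -2.47 points and IGHJ4 -0.568 points, with 9 V genes higher in IgG, 20 called in all and IGHV4-1 at 0.42. Against IGHG2B, the ratio was 1.05, clonotypes 21.1, hydrophobicity -0.00472, charge -0.0333, IGHJ1 -0.545, IGHJ2 1.01 and IGHV4-1 0.13. Against IGHG2C, the ratio was 2.07, clonotypes 151, evenness 0.105, the 10 largest -19.9, charge 0.062, IGHJ1 -0.386, IGHJ2 1.58 and IGHJ3 1.31. Against IGHG3, the ratio was 2.94, clonotypes 111, evenness 0.0997, the 10 largest -20.7, length 0.179, hydrophobicity 0.0158, charge 0.0298, IGHJ1 -1.77, IGHJ2 -2.54, and the log2 ratio 0.14 for IGHV1-52, 0.0463 for IGHV1-7, -0.60 for IGHV6-3, -0.53 for IGHV6-6, -0.13 for IGHV7-1 and -0.68 for IGHV7-3.

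With rows of at least 2 counts, clonotypes differed by 40.2, and length (-0.0801), hydrophobicity (-0.0113), IGHJ1 (-0.952) and IGHJ2 (0.434) no longer passed. Weighted by counts, length differed by -0.221, charge by 0.0200, IGHJ3 by 2.64, IGHJ4 by -3.05 and the log2 ratio by -0.01, with 5 V genes higher in IgA and 18 in all. By rows, charge differed by 0.00287 and 8 V genes were higher in IgA. By clonotypes the log2 ratio was -0.14, and by median the length difference was -0.25. At the lower depth of each mouse clonotypes differed by -366, more in IgG, and this passed the threshold. With TMM, 10 V genes were higher in IgG, and 12 (NOD-FMT minus NC) and 10 (PBS-T minus NC) differed between groups. With no filter, clonotypes in both isotypes at equal size, NOD-FMT minus NC, were 0.945, a measure that moved with the number of clonotypes.

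Without single mice, ranges were -1.06 to -0.689 for IGHJ1, 1.21 to 1.69 for IGHJ2, -0.0538 to 0.105 for the log2 ratio, and 1 to 8 (NOD-FMT minus NC) and 1 to 10 (PBS-T minus NC) V genes. For NOD-FMT minus PBS-T in the IgA minus IgG value, they were -0.0162 to -0.0105 for hydrophobicity, -0.27 to 0.0643 for the log2 ratio, -0.256 to 0.00973 for mutations and -0.0919 to 2.46 for unmutated rows. For PBS-T minus NC they were -0.0204 to -0.0113 for hydrophobicity and -1.52 to -1.18 for mutations. For NOD-FMT minus NC, clonotypes in both isotypes ranged from -3.9 to 1.77 and IgG mutations from -0.0796 to 0.131. For PBS-T minus NC, IgG hydrophobicity ranged from -0.00799 to 0.0145 and unmutated IgG from -1.15 to 2.45 points.

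With the replicate number of NOD-FMT and PBS-T as a replicate block, 0 of 13 measures differed (exact sign-flip permutation test on differences between same-numbered mice, smallest p = 0.0547, smallest adjusted p = 0.711). The differences were -0.103 for mutations, 0.787 for unmutated rows, -0.10 for the log2 ratio, 0.0747 for length and -0.0143 for hydrophobicity. Same-numbered mice correlated at -0.268 to 0.201 over 9 numbers and 0 mice correlated best with their own, so the numbers were not taken as pairs. PBS-T mouse 6, with 3852 IgA and 3282 IgG counts, set the depth of the diversity measures.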
